A study of Mus musculus with 8 samples.

Results

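The genes described here encode 3 receptors of the ErbB family (Egfr, Erbb2, Erbb3) and 6 proteins grouped here as their negative regulators. These are Lrig1, Lrig2, Lrig3, Errfi1, Cbl and Cblb, and whether each of them restrains the receptors in this tissue was not tested. The receptor and regulator genes are 9 of the 49315 genes in the count files and were chosen by name, by matching each Ensembl identifier to its GENCODE mouse symbol. Each of the 9 symbols matched 1 gene. The RNA came from epidermis of the back skin of mice aged 22 months, in 5 libraries labelled Tgfa KO and 3 labelled WT, and the labels call the cells keratinocytes. Tgfa encodes TGF-alpha, which activates Egfr, and the study asked how its absence bears on hair follicles and hair loss in aging mice. The labels name neither the strain nor the knockout allele, nor whether WT animals were littermates, and they do not say that each library came from a separate mouse, so the p-values below measure the spread between these libraries.

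ErbB receptors are membrane tyrosine kinases that pair up when ligand binds. Egfr binds TGF-alpha and its relatives, Erbb2 has no known ligand of its own and serves as the favoured partner, and Erbb3 binds neuregulins, has a weak kinase and couples strongly to PI3 kinase. The receptors are restrained at several levels: Errfi1 (also called Mig6) is a cytoplasmic inhibitor that is induced by receptor signalling and binds the kinase domain, Cbl and Cblb are ubiquitin ligases that send active receptors to the lysosome, and Lrig1 is a transmembrane protein that lowers receptor levels and marks stem cells of the upper hair follicle. Egfr signalling is known to hold basal keratinocytes in the proliferative state and to be needed for normal hair follicle cycling.

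The libraries differed in quality in ways that touch these genes. The names of KO replicates 3 to 5 end in bl and those of the other 5 libraries in br, and the labels leave the endings unexplained. Total counts ran from 5313552 to 17417500 in the KO group and from 12968728 to 18292303 in the WT group. Tgfa itself had 34.4 to 70.1 CPM (counts scaled to a fixed library total, with TMM factors) in KO replicates 2 to 5. It had 85.1 to 111.7 CPM in the WT libraries and 131.7 CPM in the library labelled KO replicate 1. By library totals these values were 37.3 to 72.9, 84.8 to 110.2 and 102.6 CPM. On that scale the library labelled KO replicate 1 lay within the WT range. The allele is not named, so the Tgfa level does not settle the genotype of a library. The library labelled KO replicate 1 and WT replicate 3 also had Malat1 shares of 4.88% and 6.61%, against 1.34% to 1.84% in the other 6. Olfactory and vomeronasal receptor genes, which keratinocytes are not known to use, took 3563.91 CPM of the total in KO replicate 2, at 4.58 counts per kb of exon. At that density, 2.29% to 11% of the counts of each of the 9 genes in KO replicate 2 would be of this kind, the highest share being that of Lrig2, and at most 1.36% in any other library. Summed basal keratinocyte markers, 6 of 6 with a mean of at least 1 CPM, were 5546 to 13555 CPM in KO and 4081 to 12580 CPM in WT. They were lowest in WT replicate 3 and in KO replicates 2 and 1. Summed markers of cycling cells, 6 of 6 with a mean of at least 1 CPM, were 211 to 535.2 CPM in KO and 103.9 to 168.2 CPM in WT, without overlap. Of single genes over the whole table, 5.15% showed no overlap. Mki67 and Top2a made up most of the sum, and among the 6 genes Ccnb1 and Cdk1 did overlap. None of the 6 passed edgeR's test over all 8 libraries (adjusted p 0.538 to 0.693). The part of cycling cells in the results below was not tested. In bulk RNA, fewer cells of a type and less RNA per cell cannot be told apart.

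All 9 genes were well expressed, and their order was similar in every library. Errfi1 had the highest level per length, at 140.7 ± 69 TPM in KO and 226 ± 82.2 TPM in WT (counts scaled by exon length and by the library's sum, SD, n = 5 and 3). Erbb3 followed with 122.1 ± 48.4 TPM in KO and 147.8 ± 30.2 TPM in WT. Erbb2 had 99.3 ± 45.9 TPM in KO and 102.2 ± 44 TPM in WT, and Egfr 70.4 ± 27.6 TPM in KO and 95.9 ± 12.9 TPM in WT, so that Egfr, which binds TGF-alpha, had the lowest TPM of the 3 receptors in 7 of 8 libraries, WT replicate 3 being the exception. The ubiquitin ligase genes came next, with Cblb at 76.6 ± 36.7 TPM in KO and 72.6 ± 17.5 TPM in WT, and Cbl at 57.8 ± 26.6 TPM in KO and 70.2 ± 10.4 TPM in WT. The Lrig genes were the lowest, with Lrig3 at 54.4 ± 26.9 TPM in KO and 42.2 ± 11.3 TPM in WT. Lrig1 had 49.3 ± 21.1 TPM in KO and 44.5 ± 5.23 TPM in WT, and Lrig2 23.3 ± 8.88 TPM in KO and 21.2 ± 3.93 TPM in WT.

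Some neighbours in this order were not separated. Errfi1 lay above Erbb3 in 6 of 8 libraries, Egfr above Cblb in 4 of 8, Cblb above Cbl in 6 of 8 and Lrig3 above Lrig1 in 6 of 8. By contrast Erbb3 lay above Erbb2, and Lrig1 above Lrig2, in 8 of 8 libraries. TPM of all 9 genes was lowest in KO replicate 2, where Gm23935 and Gm10800 alone took 51.6% of the TPM total, against 14.3% to 22.9% for the top pair of genes elsewhere. The order of the means was the same with CPM per kb, which is not scaled by that total. The remaining family members were scarcer. Cblc, a Cbl relative with a shorter protein, had 17.3 ± 6.43 TPM in KO and 18.5 ± 3.79 TPM in WT. Erbb4, the fourth receptor, had 75 counts in KO replicate 2, and 6, 2, 0 and 4 in KO replicates 1, 3, 4 and 5, against 2, 11 and 39 counts in WT replicates 1 to 3. At the density of olfactory receptor genes, 56.6 Erbb4 counts would be present in KO replicate 2 and 22.8 in WT replicate 3, beside the 75 and 39 found.

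**Figure D1:**
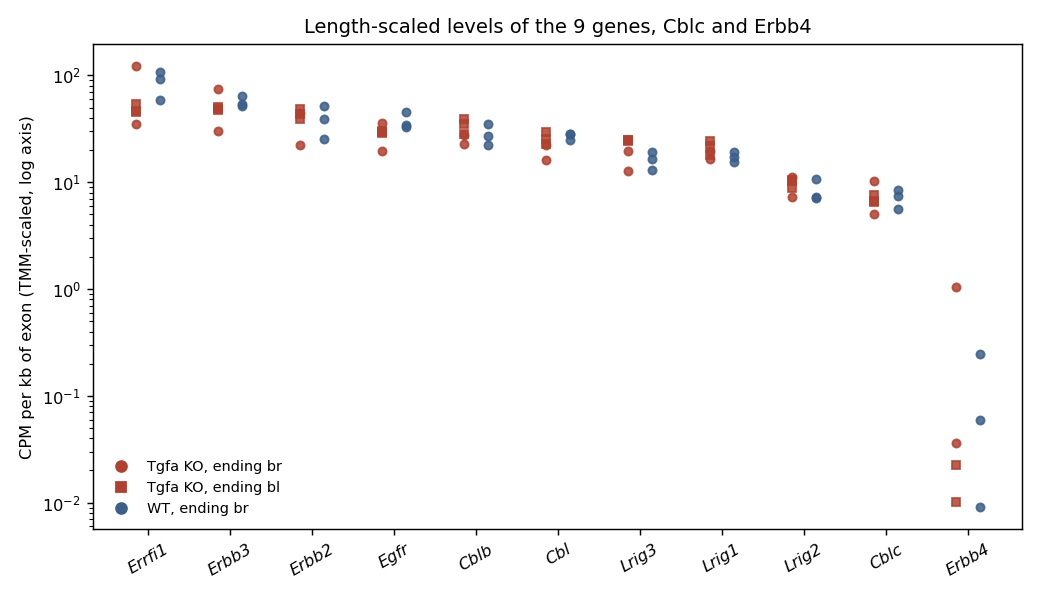
Length-scaled level (CPM per kb of exon, log axis) of the 9 genes, Cblc and Erbb4 in each library, Tgfa KO left of WT for each gene, with circles for library names ending in br and squares for those ending in bl. Genes run from Errfi1, with 172.7 TPM on average over 8 libraries, to Erbb4 with 0.273 TPM, and the Erbb4 count of 0 in KO replicate 4 cannot be drawn on a log axis.

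None of the 9 genes passed the test between KO and WT over all 8 libraries. By edgeR's quasi-likelihood test, 0 of 9 passed an adjusted p under 0.05, where 0.0052% of the 19239 genes tested did, and 0 of 9 had an unadjusted p under 0.05, where 6.28% of all genes did. DESeq2 on the same libraries also called 0 of 9, where it called 137 of 17042 genes. Limma voom called 0 of the 19239 genes, so its 0 of 9 says nothing particular about these genes. Log2 fold changes (KO minus WT) ran from -0.51 for Errfi1 to 0.4 for Lrig3, with adjusted p from 0.884 to 0.991. Egfr, Erbb3, Errfi1 and Cbl had negative values and the other 5 positive ones, a split of 4 to 5 where 38.1% of all genes were negative and 61.9% positive. The median of the 9 was 0.02, beside 0.16 over all genes tested. KO and WT values overlapped for all 9, while the groups did not overlap in 5.15% of all genes. The biological coefficient of variation over all genes was 63.7%, and the 95% intervals of the log2 fold changes ran from -0.25 to 0.68 for Lrig1 and from -1.43 to 0.4 for Errfi1, so differences of either sign remain within them.

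**Figure D2:**
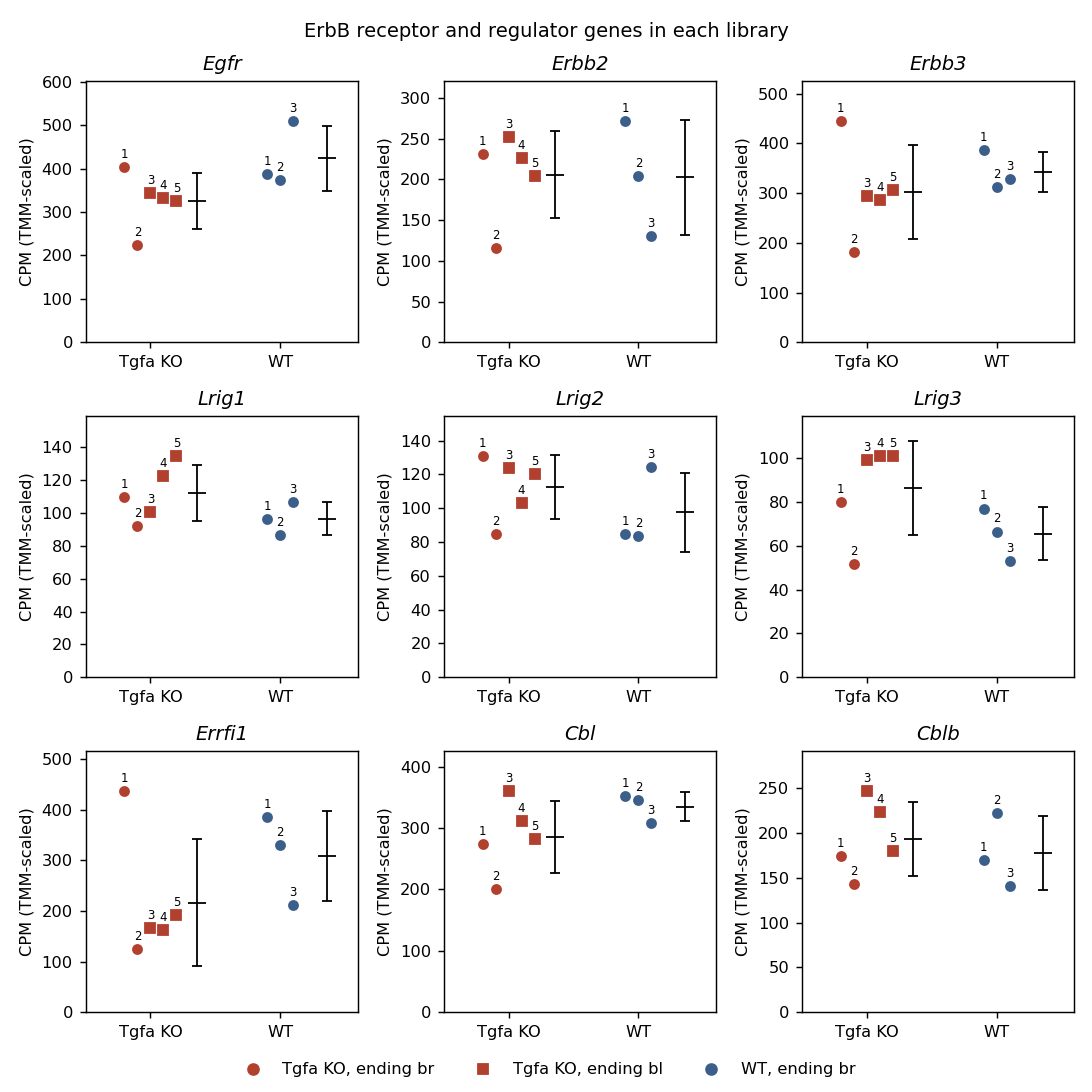
CPM (TMM-scaled) of the 9 genes in each library, with 5 Tgfa KO libraries left and 3 WT libraries right in each panel. Numbers give the replicate, circles mark library names ending in br and squares those ending in bl, and bars show mean and SD. Errfi1 shows 4 KO libraries between 124.3 and 191.9 CPM, below every WT library, and the library labelled KO replicate 1 at 437.7 CPM, above every WT library.

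Egfr (ENSMUSG00000020122, chromosome 11, 16752203 to 16918158, plus strand, GRCm38) encodes the receptor through which TGF-alpha acts. It had 403.6, 223.3, 342.6, 332.5 and 325.7 CPM in KO replicates 1 to 5, against 386.7, 373.7 and 509.5 CPM in WT replicates 1 to 3. Of the 5 KO libraries, 4 lay below every WT library, and the library labelled KO replicate 1 lay between the WT values. The log2 fold change was -0.38 (SE 0.25, edgeR adjusted p = 0.884). A two-sided exact permutation test of log2 CPM gave p = 0.107, where the smallest p that the 56 splits allow is 0.0179. Scaled by library totals alone, Egfr was 242 to 357.2 CPM in KO and 372.4 to 502.7 CPM in WT, without overlap (exact permutation p = 0.0357, not adjusted for the 9 genes so tested), a separation that 4.87% of all genes showed on that scale. The overlap came from the library labelled KO replicate 1, whose Egfr value was 314.4 CPM by totals and 403.6 CPM by TMM. The value stayed negative in all 22 alternative fits, from -0.73 without WT replicate 2 to -0.22 in the 5 libraries left without WT replicate 3 and KO replicates 1 and 2.

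Erbb2 (ENSMUSG00000062312, chromosome 11, 98412470 to 98437716) had a difference near 0. It had 231, 115.5, 251.4, 226.6 and 203.6 CPM in KO replicates 1 to 5, against 271.7, 204.4 and 130.9 CPM in WT replicates 1 to 3, with KO replicate 2 and WT replicate 3 lowest. Those are the libraries with the lowest basal keratinocyte marker sums, and the part of this in the Erbb2 value was not tested. The log2 fold change was 0.02 (SE 0.32, edgeR adjusted p = 0.991), and its sign turned in 11 of 22 alternative fits. Of the bases in Erbb2 exons, 9 are shared with Mien1 on the opposite strand.

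Erbb3 (ENSMUSG00000018166, chromosome 10, 128567523 to 128589652) had 445, 181, 293.5, 286.4 and 305.2 CPM in KO replicates 1 to 5, against 386.9, 312.6 and 327.4 CPM in WT replicates 1 to 3. As for Egfr, 4 KO libraries lay below every WT library, and the library labelled KO replicate 1 was the highest of all 8. By library totals that library had 346.7 CPM, below the 377.9 CPM of WT replicate 1. On the same scale KO replicate 5 (317 CPM) lay above WT replicate 2 (311.5 CPM). The log2 fold change was -0.18 (SE 0.29, edgeR adjusted p = 0.936, exact permutation p = 0.482). Erbb3 is also used by melanocytes and Schwann cells. Summed markers of melanocytes (4 of 6 with a mean of at least 1 CPM) were 26 to 46.1 CPM in KO and 29.5 to 35.8 CPM in WT, with Mlana at 0 in KO replicate 3. Summed Schwann cell markers (2 of 6 with such a mean) were 9.95 to 28.1 CPM in KO and 16.4 to 19.4 CPM in WT, with Cdh19 at 0 in KO replicates 1, 3 and 5 and WT replicate 1, and the part of either cell type in the Erbb3 value was not tested. As shares of the summed TPM of the 4 receptor genes, Erbb3 took 42 ± 3.79% in KO and 42.7 ± 0.899% in WT. Erbb2 took 33.2 ± 3.81% in KO and 28.8 ± 7.64% in WT, and Egfr 24.5 ± 1.48% in KO and 28.4 ± 6.88% in WT, differences smaller than the SD of the WT libraries.

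Errfi1 (ENSMUSG00000028967, chromosome 4, 150853919 to 150868892, plus strand) had the largest difference in size among the 9 genes. It had 437.7, 124.3, 166.7, 162.3 and 191.9 CPM in KO replicates 1 to 5, from 5939, 716, 2666, 2844 and 2758 counts, against 386.4, 329.6 and 211.4 CPM in WT replicates 1 to 3, from 6904, 4983 and 2705 counts. In 4 KO libraries it was below every WT library, and in the library labelled KO replicate 1 it was above every WT library. By library totals the library labelled KO replicate 1 had 341 CPM, within the WT range of 208.6 to 377.4 CPM. Over all 8 libraries the log2 fold change was -0.51 (SE 0.41, edgeR adjusted p = 0.909, exact permutation p = 0.268). Leaving out that KO library gave -0.94 (SE 0.25, edgeR adjusted p = 0.191), and without WT replicate 1 it was -0.29 (edgeR adjusted p = 1).

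In the fits that give less or no weight to the libraries that stand apart, Errfi1 fell. Those libraries include the highest KO value of Errfi1 (437.7 CPM) and the lowest WT value (211.4 CPM). Taking weight from these 2 widens the difference by itself. They also include the lowest KO value (124.3 CPM), which works the other way. The weights come from these same counts, so these fits are no independent support for a fall. With library quality weights, in which the library labelled KO replicate 1, KO replicate 2 and WT replicate 3 were weighted 0.28, 0.37 and 0.34 and the others 1.47 to 2.26, the log2 fold change was -0.94 (SE 0.2, limma adjusted p = 0.0214). That fit called 6.46% of all genes, 3.07% lower and 3.39% higher. With those 3 libraries left out, it was -1.07 (SE 0.13, edgeR adjusted p = 0.00206), in a fit that called 10.6% of 17804 genes, 5.32% lower and 5.25% higher. WT replicates 1 and 2 and KO replicates 3 to 5 remain in it. These KO libraries all have names ending in bl and the WT libraries names ending in br. The ending and the genotype therefore cannot be told apart there. Among libraries ending in br alone the value was -0.15 (SE 0.69, edgeR adjusted p = 0.994), resting on 2 KO libraries of which 1 is the library labelled KO replicate 1, and with the ending as a covariate over all 8 libraries it was -0.14 (SE 0.49, edgeR adjusted p = 0.946). Within the KO group, libraries ending in bl minus those ending in br differed by -0.76 (SE 0.43, edgeR adjusted p = 0.403), in a test that called 0% of 14175 genes.

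Summed Langerhans cell markers, 5 of 5 with a mean of at least 1 CPM, set KO replicates 2 to 5 below the other libraries. Errfi1 CPM split the libraries in the same way. So did Tgfa, with 34.4 to 70.1 CPM in KO replicates 2 to 5 and 85.1 to 131.7 CPM in the other libraries. The match was looked at after the values were seen and has no test. The marker sums were 884.4 CPM in the library labelled KO replicate 1 and between 288.8 and 480.6 CPM in KO replicates 2 to 5, against 658.1 to 893.8 CPM in WT. Within the groups the order differed. WT replicate 3 had the least Errfi1 of the WT libraries and the highest marker sum. KO replicate 5 had the lowest sum but more Errfi1 than KO replicates 2 to 4. Cd207, which encodes langerin and defines these cells, was 9.39 to 29.5 CPM in KO and 27.8 to 37 CPM in WT. It fell in the same fits as Errfi1, with library weights (-1.18, limma adjusted p = 0.0192) and without the 3 libraries (-1.22, edgeR adjusted p = 0.0298). The other markers of the list did not pass with library weights (limma adjusted p 0.0532 to 0.0927). Summed suprabasal keratinocyte markers were, like Errfi1, highest in the library labelled KO replicate 1 (25415 CPM) and lowest in KO replicate 2 (7592 CPM). In KO replicates 3 to 5 they were 16465 to 20687 CPM, above the 7958 to 15373 CPM of WT. The part of either cell type in the Errfi1 value was not tested.

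The RefSeq start sites of Errfi1 include one preceded by a window with several textbook promoter elements, shown here beside those of Egfr and of Lrig2, whose level relative to Egfr is described below. Each line gives the 250 bases upstream of a RefSeq start on GRCm38.p6, 5′ to 3′ on the strand of the gene, with matches on either strand in capitals. The motifs searched were TATAAA for the box near many start sites, GGGCGG for the GC box of SP1, TGANTCA for the site of AP-1, TGACGTCA for the cAMP response element and CACGTG for the E-box.
Errfi1, chr4:150854820-150855069, plus strand: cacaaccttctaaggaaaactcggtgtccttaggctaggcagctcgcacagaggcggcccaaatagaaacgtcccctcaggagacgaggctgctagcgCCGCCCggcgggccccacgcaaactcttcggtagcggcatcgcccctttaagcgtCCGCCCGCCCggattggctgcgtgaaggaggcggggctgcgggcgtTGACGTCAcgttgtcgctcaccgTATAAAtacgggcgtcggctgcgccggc
Egfr, chr11:16751953-16752202, plus strand: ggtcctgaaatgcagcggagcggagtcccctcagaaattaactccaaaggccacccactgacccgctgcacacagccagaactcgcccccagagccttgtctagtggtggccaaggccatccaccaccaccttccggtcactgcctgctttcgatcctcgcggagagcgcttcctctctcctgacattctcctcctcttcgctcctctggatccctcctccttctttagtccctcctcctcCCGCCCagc
Lrig2, chr3:104511919-104512168, minus strand: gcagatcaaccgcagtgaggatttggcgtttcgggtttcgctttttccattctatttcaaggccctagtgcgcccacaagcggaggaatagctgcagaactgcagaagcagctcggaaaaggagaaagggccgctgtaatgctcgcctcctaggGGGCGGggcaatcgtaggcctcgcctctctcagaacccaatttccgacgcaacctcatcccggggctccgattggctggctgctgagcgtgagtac
The Errfi1 window held 1 TATAAA match, 1 cAMP response element and 3 GC boxes, of which 1 pair overlaps, at 64.8% G and C. Over 32851 windows of the same length, 12.4% held TATAAA, 1.55% a cAMP response element, 32.7% a GC box, 6.75% an AP-1 match and 6.02% an E-box, and the median G and C content was 52.4%. The Egfr and Lrig2 windows held 1 GC box each and none of the other letters searched. A second RefSeq start of Errfi1, at 38% G and C, had no match to these letters in its window. Windows were found for 8 of the 9 genes. They describe sequence alone, and the RNA counts do not show which start was used.

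The Lrig genes encode transmembrane proteins with leucine-rich repeats and immunoglobulin domains, and all 3 had positive values. Lrig3 (ENSMUSG00000020105, chromosome 10, 125966219 to 126015359) had 80, 51.6, 99.3, 101.2 and 100.9 CPM in KO replicates 1 to 5, against 77.1, 66.6 and 53.1 CPM in WT replicates 1 to 3. In 4 of 5 KO libraries it was above every WT library, and KO replicate 2 was below every WT library. The log2 fold change was 0.4 (SE 0.27, edgeR adjusted p = 0.884, exact permutation p = 0.232). It passed in the fit without WT replicate 3 and KO replicates 1 and 2 (0.45, SE 0.12, edgeR adjusted p = 0.0435), did not pass with library weights (0.48, limma adjusted p = 0.102), was -0.04 among libraries ending in br alone, and was 0.01 (SE 0.29, edgeR adjusted p = 0.997) with the ending as a covariate. The KO libraries ending in bl lay 0.5 above those ending in br on the log2 scale (SE 0.21, edgeR adjusted p = 0.288).

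Lrig1, the stem cell marker, lies on chromosome 6 (ENSMUSG00000030029, 94604529 to 94700158, minus strand), 8.33 Mb from Tgfa. It had 110, 92, 100.9, 122.4 and 134.9 CPM in KO replicates 1 to 5, against 96.2, 86.7 and 106.8 CPM in WT replicates 1 to 3. Of the KO libraries 3 lay above every WT library and the other 2 within the WT range. The log2 fold change was 0.22 (SE 0.21, edgeR adjusted p = 0.93, exact permutation p = 0.196), and it was -0.11 without WT replicate 2. Summed upper hair follicle markers, of which Lrig1 is one, were 552.8 to 990.1 CPM in KO and 566.2 to 925.1 CPM in WT. Within that sum of 5 genes, 3 had no overlap between groups and went opposite ways, with Krt79 at 357 ± 143 CPM in KO and 131 ± 28.6 CPM in WT, Sostdc1 at 30.6 ± 15.6 CPM in KO and 8.21 ± 2.66 CPM in WT, and Plet1 at 116 ± 69.8 CPM in KO and 374 ± 146 CPM in WT. The groups did not overlap in 5.15% of all genes, and these 3 were named after their values were seen. The part of upper hair follicle cells in the Lrig1 value was not tested. Of its exon bases, 144 are shared with Slc25a26 on the opposite strand, and reads of the pair cannot be told apart there without strand.

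Lrig2 (ENSMUSG00000032913, chromosome 3, 104396418 to 104511918) had 131, 84.6, 123.8, 103 and 120.5 CPM in KO replicates 1 to 5, against 84.6, 83.6 and 124.6 CPM in WT replicates 1 to 3. WT replicate 3 stood with the KO libraries, and KO replicate 2 with the other two WT libraries. The log2 fold change was 0.21 (SE 0.24, edgeR adjusted p = 0.933, exact permutation p = 0.357), -0.17 without WT replicate 2, and 0.43 (SE 0.13, edgeR adjusted p = 0.0591) without WT replicate 3 and KO replicates 1 and 2.

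Cbl and Cblb, the ubiquitin ligases, had small values of opposite sign. Cbl (ENSMUSG00000034342, chromosome 9, 44142976 to 44234049) had 273.7, 200.4, 360.8, 311.8 and 281.5 CPM in KO replicates 1 to 5, against 351.3, 345.4 and 307.9 CPM in WT replicates 1 to 3. Its log2 fold change was -0.23 (SE 0.24, edgeR adjusted p = 0.931, exact permutation p = 0.268), negative in all 22 alternative fits, from -0.55 to -0.13. Cblb (ENSMUSG00000022637, chromosome 16, 52031549 to 52208047) had 174.5, 142.6, 247.3, 223.4 and 179.9 CPM in KO replicates 1 to 5, against 169.8, 222.7 and 140.6 CPM in WT replicates 1 to 3. Its log2 fold change was 0.12 (SE 0.26, edgeR adjusted p = 0.949, exact permutation p = 0.536), and -0.23 among libraries ending in br alone.

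Cblb restrains T cell activation as well as receptor signalling, and T cells reside in mouse epidermis. Summed T cell markers, 6 of 6 with a mean of at least 1 CPM, were 47.5 to 128.1 CPM in KO and 50.7 to 89.3 CPM in WT. They were highest in KO replicates 4 and 3, at 128.1 and 118.3 CPM, which with WT replicate 2 also had the highest Cblb values. KO replicate 2 went the other way. Its marker sum of 92 CPM was above the 89.3 CPM of WT replicate 2, but its Cblb, at 142.6 CPM, was the lowest of the KO group. The part of T cells in the Cblb value was not tested. As a share of the summed TPM of Cbl, Cblb and Cblc, Cbl took 36.9% to 39.1% in KO and 40.6% to 45.4% in WT, without overlap, while Cblb took 46% to 52.5% in KO and 40% to 51.2% in WT. The Cbl share was singled out after its values were seen and has no test. Relative to the same sum, 0.993% of all genes tested lay lower in every KO than in every WT library. Cbl is itself part of that sum, which does not hold for genes outside it. The direction was also taken after the Cbl values were seen, so this percentage is not a like background for the Cbl share.

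A ratio of 2 genes within a library does not depend on how the library is scaled. Relative to Egfr, Lrig2 had 0.313, 0.365, 0.348, 0.298 and 0.356 TPM per TPM of Egfr in KO replicates 1 to 5, against 0.211, 0.216 and 0.236 in WT replicates 1 to 3. The groups did not overlap, and the library labelled KO replicate 1 lay with the other KO libraries. Lrig1 relative to Egfr was 0.553, 0.836, 0.597, 0.747 and 0.84 in KO replicates 1 to 5, against 0.505, 0.47 and 0.425 in WT replicates 1 to 3, also without overlap. Lrig3 relative to Egfr was 0.554 to 0.866 in KO and 0.292 to 0.558 in WT, an overlap of the lowest KO with the highest WT library. After subtraction of the counts expected at the density of olfactory receptor genes, the Lrig2 ratio in KO replicate 2 was 0.338 and the Lrig1 ratio 0.829, both still above every WT library.

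These ratios combine a lower Egfr value with higher Lrig values, were examined after the single genes were known, and have no test. Of the other 8 genes, 2 lay higher relative to Egfr in every KO than in every WT library, and 9.7% of all genes tested did so, so such a separation was common in these data. Errfi1 relative to Egfr was 1.54 to 3.43 in KO and 1.31 to 3.16 in WT, with overlap. WT replicate 3, which had the most Egfr and the least Errfi1 of the WT libraries, gave the lowest of these ratios, and the library labelled KO replicate 1 the highest. Ratios of Cbl to Egfr (0.813 ± 0.125 in KO, 0.745 ± 0.165 in WT) and of Cblb to Egfr (1.08 ± 0.204 in KO, 0.783 ± 0.286 in WT) overlapped.

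**Figure D3:**
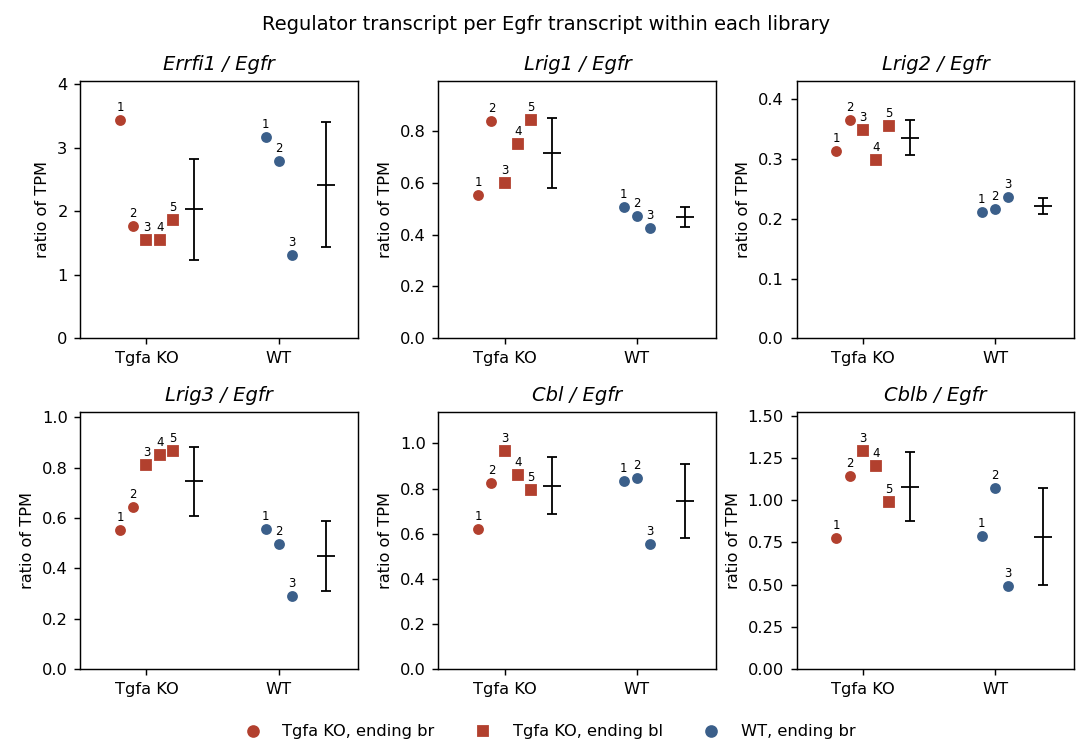
TPM of each regulator gene divided by TPM of Egfr in the same library, with 5 Tgfa KO libraries left and 3 WT libraries right, replicate numbers, circles for names ending in br, squares for bl, and bars for mean and SD. For Lrig2 the 5 KO libraries lie between 0.298 and 0.365 and the 3 WT libraries between 0.211 and 0.236, while for Errfi1 the groups overlap.

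Across fits, the direction was steadier for some genes than for others. Egfr, Erbb3, Errfi1 and Cbl kept a negative value in 22 of 22 alternatives each, Lrig1 and Lrig2 kept a positive one in 21, Lrig3 also in 21, Cblb in 19 and Erbb2 in 11. The alternatives refit the same 8 libraries or parts of them, so a kept sign is no independent support. The values nearest 0 were -0.03 for Erbb3 and -0.14 for Errfi1. With 3 WT against the 3 KO libraries ending in bl, edgeR called 0 of the 9 genes, where it called 0.122% of 17268 genes, and Errfi1 and Lrig3 had the largest values of the 9, at -0.88 (adjusted p = 0.104) and 0.56 (adjusted p = 0.13). Among libraries ending in br alone, 0% of 22750 genes were called.

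**Figure D4:**
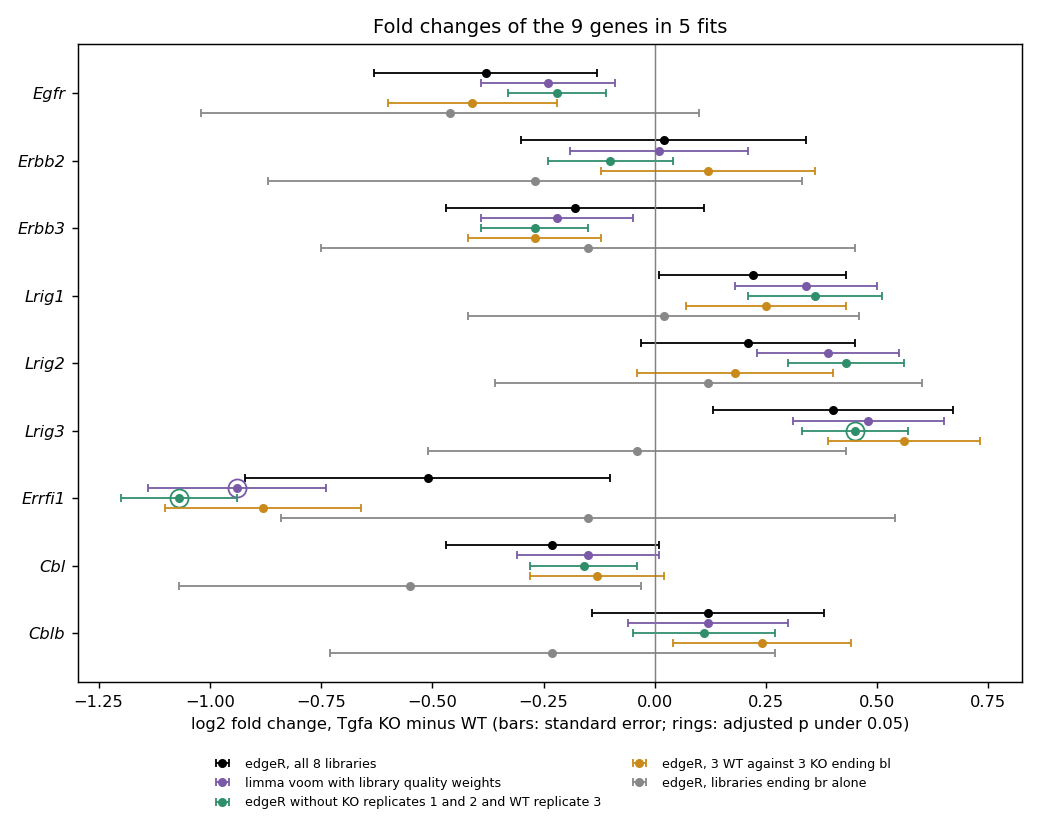
Log2 fold change (Tgfa KO minus WT) of the 9 genes in 5 fits, with bars for the standard error and rings where the adjusted p was under 0.05. Errfi1 is ringed with library weights (-0.94) and without WT replicate 3 and KO replicates 1 and 2 (-1.07), Lrig3 without those 3 libraries (0.45), and no gene is ringed with all 8 libraries weighted equally.

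The rest of the pathway is given by lists of genes around the receptors, in which edgeR called no gene over all 8 libraries. The fit without WT replicate 3 and KO replicates 1 and 2 is quoted for these lists too. It called 10.6% of all genes, and genotype and name ending cannot be told apart in it, so the value among br libraries alone stands beside each call, none of which passed there. Of 11 EGF family ligand genes 10 were tested, 7 with negative values and a median of -0.54. Tgfa, the gene named in the KO label, is counted among them, and its value is no response of the other ligand genes. The highest by TPM were Ereg, which encodes epiregulin (170.2 ± 71.4 TPM in KO, 526.7 ± 233.4 TPM in WT, log2 fold change -1.52, edgeR adjusted p = 0.431), and Epgn, which encodes epigen (63.8 ± 21.8 TPM in KO, 157.9 ± 48.3 TPM in WT, -0.96, adjusted p = 0.836). In 2 of the 10, Btc, which encodes betacellulin (24.3 ± 8.04 CPM in KO, 94.2 ± 19.1 CPM in WT, -1.96, edgeR adjusted p = 0.22), and Ereg, KO lay below WT without overlap, where the groups did not overlap in 5.15% of all genes. With library weights, where 3.07% of all genes were called lower, 4 ligand genes fell, with the gene of the KO label among them. They were Btc (-2.23, limma adjusted p = 0.00301), Ereg (-1.87, adjusted p = 0.00321), Epgn (-1.53, adjusted p = 0.0185) and Tgfa itself (-0.91, adjusted p = 0.0483). Without the 3 libraries Ereg (-1.91, edgeR adjusted p = 0.0116), Epgn (-1.54, adjusted p = 0.0424) and Hbegf, which encodes heparin-binding EGF-like growth factor (-0.82, adjusted p = 0.0102), fell, while Btc (-2.17, adjusted p = 0.051) and Tgfa (-0.86, adjusted p = 0.0979) did not pass. Among br libraries alone the values were -1.97 for Btc, -1.44 for Ereg, -0.28 for Epgn, -0.41 for Hbegf and -0.2 for Tgfa.

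Of 29 genes of receptor ubiquitination, endocytosis and sorting, 19 had negative values (median -0.11), and 0 passed in either direction. The most abundant were Rab5a, a GTPase of early endosomes (173.4 ± 99.9 TPM in KO, 242.8 ± 93 TPM in WT), and Cd2ap, an adaptor that binds Cbl (166 ± 72.6 TPM in KO, 241.4 ± 85.7 TPM in WT). In 1 gene of this list, the deubiquitinase gene Otud7b, the groups did not overlap, a share below the 5.15% of all genes, at 53.8 ± 5.92 CPM in KO and 67.3 ± 3.9 CPM in WT (log2 fold change -0.32, edgeR adjusted p = 0.853). Its choice followed a look at the values. Without WT replicate 3 and KO replicates 1 and 2, Stam, an adaptor of endosomal sorting, and Ubash3b, which binds Cbl, fell (-0.55 and -0.81, edgeR adjusted p = 0.0205 and 0.0158), 2 of 29 genes where 10.6% of all genes were called. Among br libraries alone Stam was -0.08 and Ubash3b -0.8.

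Among 12 receptor phosphatase and SOCS genes, 6 were negative and 6 positive (median 0.06). Ptpn12, a tyrosine phosphatase gene, had 71.8 ± 17.6 CPM in KO and 99.8 ± 19.8 CPM in WT over all 8 libraries (log2 fold change -0.47, edgeR adjusted p = 0.836). It fell with library weights (-0.71, limma adjusted p = 0.03) and without the 3 libraries (-0.75, edgeR adjusted p = 0.015), and was -0.38 among br libraries alone. Ptprs, a receptor phosphatase gene, had 55.1 ± 33.4 TPM in KO and 43.1 ± 10.2 TPM in WT.

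Of the 22 genes of receptor adaptors and the RAS to ERK core, 11 were negative and 11 positive (median 0.01). The ERK kinase gene Mapk3 was the most abundant, at 93.4 ± 39.7 TPM in KO and 122.2 ± 19.4 TPM in WT. Without the 3 libraries Grb2, the adaptor that links receptors to RAS, fell (-0.56, edgeR adjusted p = 0.0344), and the RAF kinase gene Araf rose (0.57, adjusted p = 0.0192). Among br libraries alone Grb2 was -0.24, and Araf was -0.2, of the opposite sign. The 14 genes of the PI3 kinase and AKT arm, which Erbb3 engages, were split 7 to 7 (median -0.01), with Pik3cb, a catalytic subunit gene, at 70.8 ± 34.3 TPM in KO and 117.3 ± 65.2 TPM in WT, and Foxo3, a transcription factor gene restrained by AKT, at 56.7 ± 30.4 TPM in KO and 62.9 ± 15.7 TPM in WT.

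The genes whose log2 CPM ran most like each of the 9 across the 8 libraries, out of 8742 genes with a mean of at least 10 CPM, are given as a description. The closest to Errfi1 were Ctdp1 (Pearson r = 0.991, Spearman rho = 0.952) and Epha2, an ephrin receptor gene (r = 0.991, rho = 1). The closest to Egfr were Pja2 and Ago2 (r = 0.986 and rho = 0.976 for each), and to Erbb3 Ckap4 (r = 0.996, rho = 0.976). Lrig1 ran closest to Slc36a1 (r = 0.971, rho = 0.976) and Lrig3 to Fam83c (r = 0.993, rho = 0.952). The points share the depth, scaling and quality of the same 8 libraries, and the highest of 8742 values over 8 points is high by selection. Among the 9 genes themselves the highest correlation was that of Erbb3 with Errfi1 (r = 0.87, rho = 0.98). On the TMM scale both were highest in the library labelled KO replicate 1 and lowest in KO replicate 2.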

How the data were processed

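The authors deposited unnormalized counts, as whole numbers of reads for each gene, in 1 table for each of 8 libraries. The submitters' processing notes name Trimmomatic 0.36, STAR 2.5.2b, Subread 1.5.2 and its featureCounts. Settings, strandedness and multi-mapping reads are not described in those sources. The notes name GRCh38 and GRCm38. The identifiers are mouse, 49056 of 49315 matched GENCODE M21 and 91.4% of these shared start and end with it, and coordinates are given on GRCm38. Groups came from the genotype labels, and replicates were numbered in order of deposition.

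The whole table was fitted in R 4.3.3 with edgeR 4.0.16 (TMM, filterByExpr, robust quasi-likelihood test, genotype alone, Benjamini-Hochberg adjusted p under 0.05). SE is the log2 fold change divided by the root of F. TPM used the files' exon lengths. Single genes were compared by two-sided exact permutation over 56 splits. Alternatives used limma 3.58.1, DESeq2 1.42.0, other factors, filters and subsets of libraries. Scripts were tested on simulated data. The 9 genes and the lists were chosen with earlier results of these data known. The genes named are the 9, Erbb4, Cblc, Tgfa, those past a threshold in a list, the top 2 of each list by TPM and the closest genes by correlation. Single marker genes were named after their values were seen. Some genes that this rule names are not reported here. Protein sequences were not used here. Counts carry counting error alone and no intervals are given for them.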

Additional observations from a re-analysis of the deposited data

Results flagged for a closer look

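In the library labelled KO replicate 1, Errfi1 was 437.7 CPM, far from the other 4 KO libraries (124.3 to 191.9 CPM). The gap to the nearest of them was 0.784 of the range of the KO group, where 0.71 is the limit for 5 values. The gap was computed on TMM-scaled CPM alone. By library totals Errfi1 was 341 CPM in that library and 134.7 to 199.4 CPM in the other 4. By TPM it was 235.3 and 41.4 to 153.2. Whether the flag holds on those scales was not tested. Chance alone flags about 1 in 20 groups, and 9 genes were looked at. The same library had a Malat1 share of 4.88%. On the TMM scale it also had 131.7 CPM of Tgfa and the highest Egfr and Erbb3 of the KO group. By library totals its Tgfa was 102.6 CPM, within the WT range of 84.8 to 110.2 CPM. Its Egfr was then 314.4 CPM, below the 357.2 CPM of KO replicate 4.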

How the results depend on the processing

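No paired analysis was possible because the labels give no replicate numbers shared between the groups. Of 198 member values under alternatives, 178 kept direction and side of the threshold, 17 changed sign (at most 0.27 in size) and 3 newly passed. Erbb2, at 0.02, was -0.01 in DESeq2, -0.004 with RLE factors, -0.02 with upper quartile factors, -0.22 with the label ending as covariate, -0.27 among libraries ending in br and -0.1 without WT replicate 3 and KO replicates 1 and 2. With that covariate Cblb was -0.16, and among libraries ending in br Cblb was -0.23 and Lrig3 -0.04. Over single left-out libraries the values ran from -0.22 to 0.33 for Erbb2, -0.11 to 0.28 for Lrig1, -0.17 to 0.41 for Lrig2 and -0.03 to 0.19 for Cblb, with sign changes without WT replicates 2 or 3 or KO replicates 1, 3 or 4. Errfi1 passed with library weights (-0.94), which called 1 of the 9 genes, and without the 3 libraries (-1.07), which called 2, Lrig3 (0.45) being the other. By library totals the exact permutation test of Egfr (-0.38) gave an unadjusted p of 0.0357, 1 of 9 genes tested, against 0.107 with TMM. Genes called over the whole table numbered 1, against 137 in DESeq2, 1243 with library weights, 1883 without the 3 libraries, 21 against KO libraries ending in bl, 9 with no filter, 0 in limma voom, with RLE or upper quartile factors and among libraries ending in br, and 0 to 1 with a library left out. The causes of these changes were not tested. Subtracting the density of olfactory receptor genes, an alternative chosen after seeing the data, moved no call. Order of levels was the same by CPM per kb. The median log2 fold change of all genes ran from -0.06 without WT replicate 2 to 0.53 with no filter, against 0.16. Each of the 9 genes had at least 297 counts in every library.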
